A study of Mus musculus with 5 samples.

Results

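Regions with an RNA polymerase II peak in brain, kidney, lung and spleen but none in liver numbered 1651 of 186413 merged peak regions in the mouse genome, or 0.886%. They were found by extending each peak position of the authors' lists by 250 bp to both sides, merging overlapping windows over all tissues, and keeping the merged regions that held a position from each of the 4 tissues and none from liver. The regions were thus chosen by the peak lists, which the authors made from the same reads, so the read counts given here are a description and support nothing beyond the choice. The data came from chromatin immunoprecipitation and sequencing of polymerase II in tissue freshly dissected from adult FVB mice, an inbred strain, with 1 library per tissue and an antibody from Abcam. No genotype, treatment, sex or number of animals is given in the sources used here, and an input or control library was not analysed here. With 1 library per tissue there was no replicate check and no test between tissues. Intervals of counts, shares and ratios are 95% exact binomial intervals. They hold counting error alone, and since the reads carry no molecular identifiers, repeated copies of 1 fragment are counted as separate reads.

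RNA polymerase II transcribes protein-coding genes. It assembles at promoters, often pauses shortly after the start of transcription and then travels along the gene, so crosslinked polymerase marks both starts and transcribed bodies, with the sharpest accumulation at starts. The liver consists mostly of hepatocytes, which carry out much of the body's sugar, fat and amino acid metabolism and secrete plasma proteins. Blood vessels, connective tissue and immune cells occur in all 5 organs. In whole tissue, fewer cells of a type and less polymerase per cell cannot be told apart. Positions are given as deposited and fit the mouse build mm9 by their extent. The gene and promoter tables at hand are on GRCm38, so no gene name, exon or sequence was attached to a region, and marker genes of the tissues were not checked.

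Liver had fewer reads than the other tissues at most of these regions, but it had some at every one. The libraries held 10292262 to 14964934 aligned reads, liver having the most. Counts were scaled by medians of ratios over regions well covered in every tissue, and by total reads where the choice of scaling matters. Across the 1651 regions liver held 27168 reads, kidney 56826, brain 54599, lung 59438 and spleen 41768. The median region held 14 reads in liver (quartiles 10 and 20), 28 in kidney (21 and 41), 27 in brain (19 and 39), 28 in lung (20 and 43) and 22 in spleen (17 and 30). The lowest liver count in any region was 1, and 11 regions had fewer than 3.

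After scaling, the median region held 12.0 normalised reads in liver against 24.7 in lung, 25.7 in kidney, 26.2 in brain and 32.8 in spleen. By medians of ratios, the interquartile range of liver, 8.56 to 17.1, did not overlap those of the other 4 tissues. The lowest of those began at 17.7 in lung. The tails did overlap, since liver's 95th percentile was 28.2. In raw reads liver's interquartile range, 10 to 20, reached those of spleen (from 17), brain (from 19) and lung (from 20). With scaling by total reads it still overlapped that of spleen. Summed over all regions, normalised liver reads were 0.447 times those of kidney, 0.443 times those of lung, 0.440 times those of brain and 0.373 times those of spleen. With scaling by total reads, the same ratios were 0.440, 0.331, 0.342 and 0.577, so the order of the other tissues depended on the scaling while liver stayed below each of them.

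**Figure D1:**
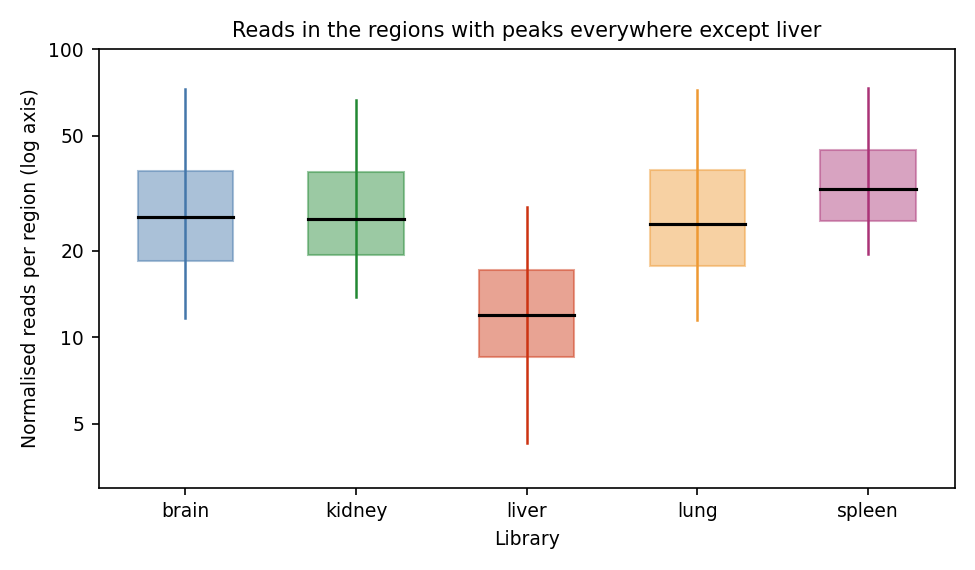
Normalised reads per region (log axis) in the 1651 regions with a peak everywhere except liver, by library. Black lines are medians, boxes span the quartiles and vertical lines run from the 5th to the 95th percentile over regions. With this scaling, by medians of ratios, the liver box, from 8.56 to 17.1, lies below the boxes of the other libraries.

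Liver had the lowest normalised count of the 5 tissues in 1502 regions, or 91.0%. Over all merged regions liver was lowest in 26.5%, but the choice of regions fixes this direction and nothing is read from the contrast. Liver lay inside the range of the other tissues in 146 regions and above all of them in 3. With scaling by total reads, liver was lowest in 1508 (24.5% over all merged regions), inside the range in 137 and highest in 6.

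The typical deficit was about the same under both scalings. The median log2 ratio of liver to the mean of the other 4 tissues was -1.27 (95% interval of the median over regions -1.30 to -1.24), or 2.40 times lower, with quartiles of -1.69 and -0.93. Scaling by total reads gave -1.34. A deep deficit was rare. Of the 757 regions with at least 20 reads in each of the other 4 tissues, 19 (2.51%) had liver at least 4-fold below the lowest of them, against 0.315% of the 8899 merged regions that met the same read minimum. At least 2-fold below were 231 (30.5%), against 4.42% of the same background. With scaling by total reads the counts were 17 at 4-fold and 199 at 2-fold, against 0.225% and 3.16% of the background. Another 487 regions had liver between 0.5 and 1 times the lowest other tissue, and 39 had liver above that tissue. The rule used this contrast, so these shares describe the choice.

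Few of these regions reached the level of a typical listed liver peak. Within 250 bp of a listed liver position the median number of liver reads was 18, and its lowest 5% had up to 10. In the regions without a liver position, the fullest window of 501 bp held a median of 10 liver reads, with quartiles of 8 and 13. It reached 10 reads in 971 regions (58.8%), the listed lower quartile of 14 in 313 (19.0%) and the listed median of 18 in 52 (3.15%). Measured in the same way, the fullest window reached the tissue's own listed median in 86.7% of the regions in lung, 83.8% in brain, 76.6% in kidney and 73.1% in spleen. The peak caller and its threshold are unknown from the sources at hand.

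**Figure D2:**
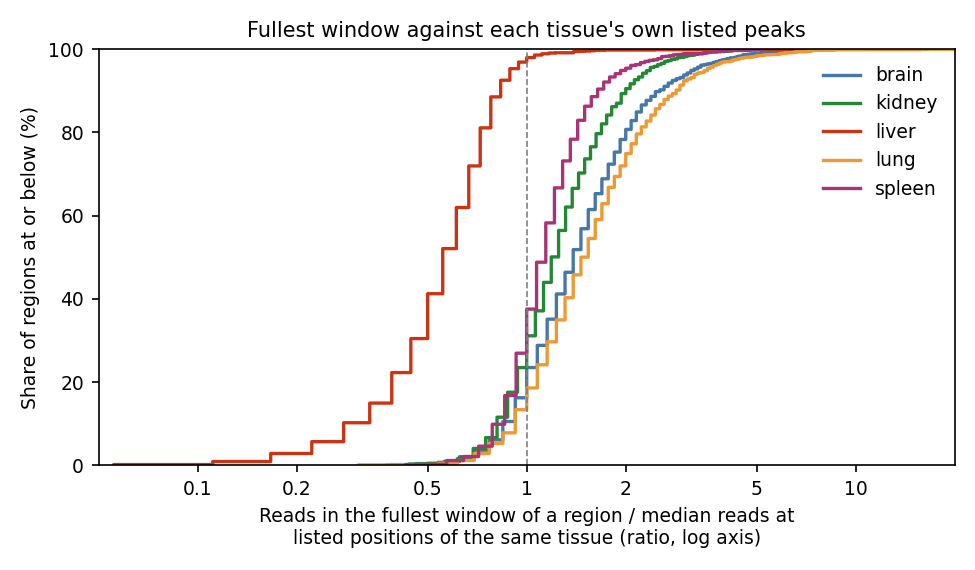
Cumulative share of the 1651 regions (vertical axis, %) by the reads in the fullest 501 bp of the region, divided by the median reads at that tissue's listed positions (log axis). The dashed line marks a typical listed peak of the tissue, which 3.15% of the regions reach in liver and 73.1% to 86.7% reach in the other libraries.

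At least 20 liver reads were found in 453 of the 1651 regions (27.4%, interval 25.3% to 29.7%). Of all merged regions without a liver position, 1.75% held as many. Length entered this count. The regions were long, at a median of 931 bp (quartiles 696 and 1314). The median was 706 bp for those with a peak in all 5 tissues and 501 bp over all merged regions. The shares of 27.4% and 1.75% thus come from regions of unlike length. With the regions split into 4 classes by length, 292 of the 413 longest and 14 of the 416 shortest held at least 20 liver reads. The ratio of liver to the mean of the others had a median log2 value of -1.45 (-1.55 to -1.37) in the shortest class and -1.17 (-1.25 to -1.13) in the longest.

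Set against the mean density of each library over the genome, liver was above the mean at most of these regions too. The median region had 2.57 times the liver library's mean of 5.80 reads per kb (quartiles 1.95 and 3.21), close to the 2.34 of all merged regions. The same ratio was 4.37 in spleen, 5.49 in kidney and 6.85 in both brain and lung. This measure uses each library alone and no scaling between tissues. Liver was below its own library mean in 59 regions and below 2 times that mean in 456, whereas at most 4 of the 1651 regions fell below 2 times the mean in any other tissue. Where all 5 tissues had a peak the median ratio was 11.0 in liver and ran from 6.36 in spleen to 14.5 in lung.

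The peaks of the 4 tissues were close to each other in most regions. The shortest stretch that held 1 position of each had a median of 290 bp, and in 1316 regions (79.7%) it was within 500 bp. Where all 5 tissues had a peak, the stretch over the same 4 tissues was tighter, at a median of 165 bp. Brain had a single position in 76.2% of the regions, lung in 78.4%, kidney in 79.4% and spleen in 91.9%. In 34 regions the stretch exceeded 1000 bp, so that the merged region joined positions of different tissues that lay side by side.

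Read density rose at the centre of these regions in the 4 tissues and less in liver. The midpoint is set by positions of those 4 tissues and none of liver, so the direction of this contrast follows from the choice. Read density within 250 bp of the region midpoint, divided by the density 1 to 5 kb away (the flanks) and pooled over the regions, was 2.29 in spleen (2.26 to 2.32), 2.26 in lung (2.23 to 2.29), 2.14 in brain (2.11 to 2.17) and 1.96 in kidney (1.94 to 1.98). In liver it was 1.26 (1.24 to 1.28). Where all 5 tissues had a peak, the same ratio was higher in each, from 4.08 in spleen to 5.60 in brain, with 5.25 in liver. The flanks differed less than the centres: normalised reads per kb in the flanks were 11.2 in liver against 14.7 to 17.6 in the other tissues, and in the centres 14.1 against 32.2 to 40.2.

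**Figure D3:**
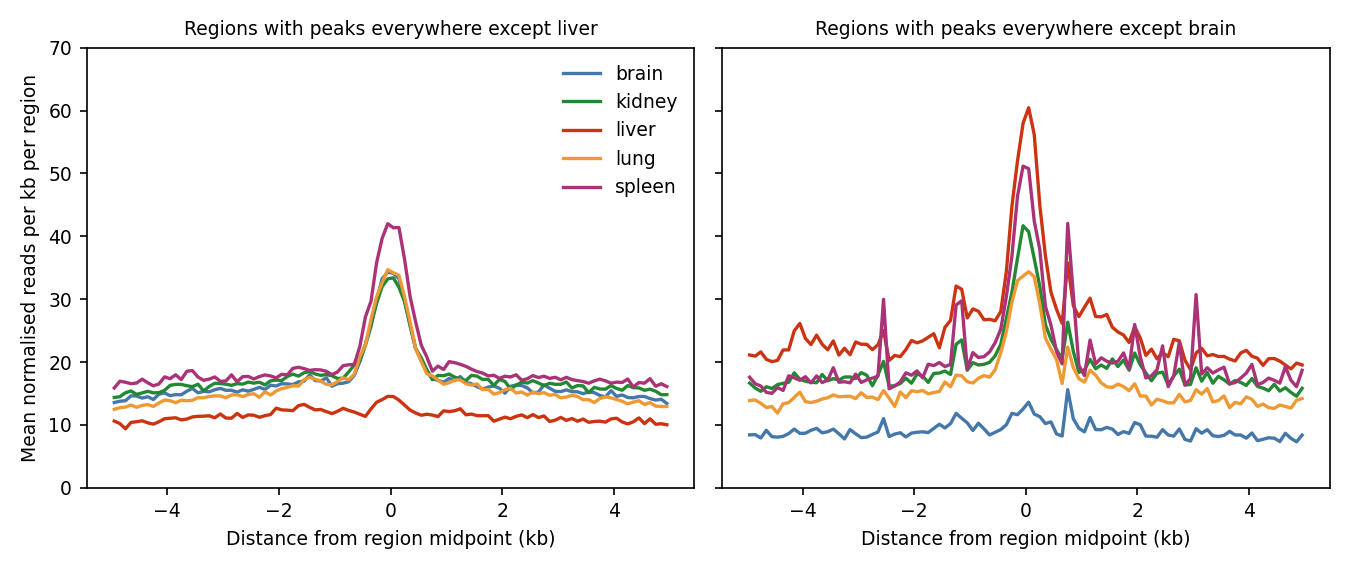
Mean normalised reads per kb per region in bins of 100 bp (vertical axis) by distance from the region midpoint, for regions with peaks everywhere except liver (left, 1651 regions) and everywhere except brain (right, 651 regions). On the left the 4 tissues with peaks rise to between 33.4 and 42.0 and liver reaches 14.5; on the right brain lies lowest, and narrow spikes off the centre, whose source was not examined, occur in several libraries at the same distances.

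The arrangement of strands is a further description of the same reads. Around a bound site, reads of the forward strand lie before those of the reverse strand, so the mean position of reverse reads minus that of forward reads is above 0. Within 500 bp of the midpoint this offset was 38.8 bp in liver (95% interval from the standard error over reads 32.0 to 45.6), against 99.0 bp in kidney, 101 bp in brain, 114 bp in lung and 114 bp in spleen. Where all 5 tissues had a peak, the liver offset was 141 bp. The interval treats reads as independent and does not cover differences between animals or libraries, and the peaks that chose the regions were called from these reads.

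Many of these regions lay beside a liver peak. The nearest listed liver position was a median of 6760 bp from the region midpoint (6020 to 7435). It was within 1 kb in 95 regions (5.75%, against 5.46% of all merged regions without a liver position), within 5 kb in 728 (44.1%) and beyond 50 kb in 181 (11.0%). The background for 5 kb was 27.8%. Being near a position of the missing tissue was not particular to this class. The share within 5 kb was 49.3% where brain was missing, 62.0% for kidney, 77.4% for lung and 41.1% for spleen. Of the 731 regions with the midpoint of a region with a liver position within 5 kb, the nearest such region had peaks in all 5 tissues in 293 cases and in 4 tissues in 217, and in liver alone in 56. Within 5 kb of a region with peaks in all 5 tissues lay 387 of the 1651 (23.4%), against 9.38% of all regions outside that class. Of the regions with peaks everywhere except brain, 25.7% did.

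**Figure D4:**
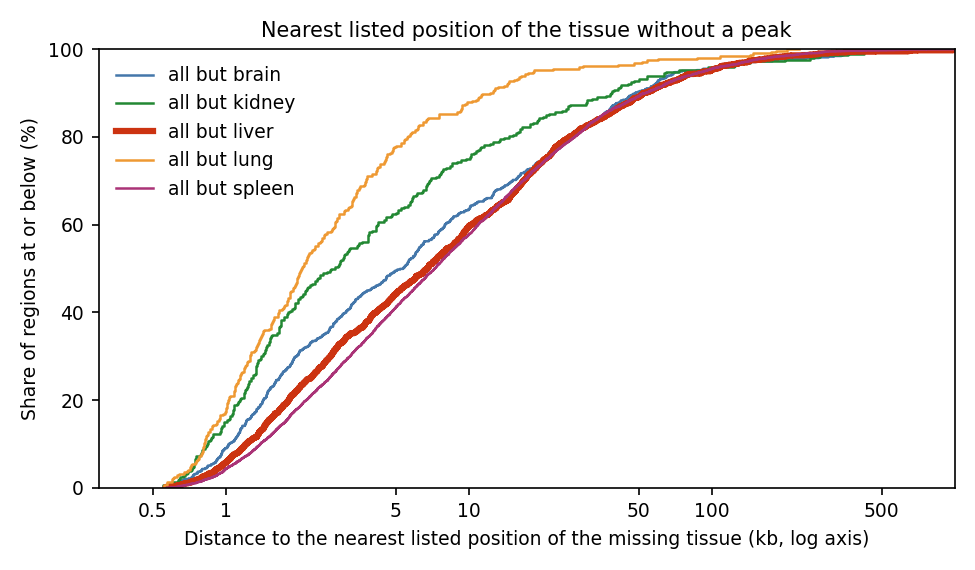
Cumulative share of regions (%) by distance from the region midpoint to the nearest listed position of the tissue that lacks a peak (kb, log axis), for each of the 5 classes with 1 tissue missing. The thick line, for liver, passes 44.1% at 5 kb and 89.0% at 50 kb.

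Read density and strand offset differed between the regions near to and far from listed liver positions, and not in liver alone. In the 923 regions with no liver position within 5 kb, liver density at the centre was 1.71 times that of the flanks (1.67 to 1.76), and 2.50 to 3.05 times in the other tissues. In the 728 regions with one, it was 1.00 (0.980 to 1.03) in liver and 1.55 to 1.89 in the others. The nearby liver peaks themselves lie in these flanks, which lowers the ratio by construction. The strand offset in liver, which does not use the flanks, was 64.1 bp (54.5 to 73.7) far from liver positions and 14.8 bp (5.09 to 24.4) near them. It was also smaller near them in every other tissue, at 119 to 132 bp far and 74.1 to 98.1 bp near. Normalised liver reads per kb at the centre were 12.5 far and 16.3 near, and in the flanks 7.29 and 16.2. The flanks of the other tissues held 10.8 to 15.0 far and 19.7 to 21.2 near.

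The deficit in liver was deepest in isolated regions. Its median log2 value was -1.55 (-1.69 to -1.42) for the 181 regions over 50 kb from a liver position, -1.33 for those at 5 to 50 kb, -1.14 for those at 1 to 5 kb and -0.93 (-1.13 to -0.75) for the 95 within 1 kb. Only 11 of the 181 isolated regions held 20 liver reads. The region chr10:6372491-6373491 was 255 kb from any liver position and held 19 liver reads, against 51 in kidney, 51 in spleen, 71 in brain and 113 in lung. The region chr2:148233446-148234376 was 264 kb away and held 14 liver reads, with 25 in spleen, 31 in brain, 47 in kidney and 155 in lung. Both are among the 5 most distant regions with at least 20 reads in each of the 4 tissues, a choice made after the data were seen.

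At the other end, 3 regions had more normalised reads in liver than in any other tissue although they held no liver position. The highest, chr6:71152701-71153486, had 372 liver reads, 40 in spleen, 32 in lung, 28 in kidney and 24 in brain. Nearby, chr6:71151266-71151836 had 310 in liver, 63 in lung, 56 in kidney, 50 in spleen and 45 in brain. Listed liver positions lay 778 bp and 570 bp from their midpoints, and in the adjoining chr6:71153621-71154121, which has a liver position, liver reads numbered 528 and those of the other tissues 3 to 6. The third was chr16:18812186-18812851, with 31 liver reads, 20 in lung, 16 each in spleen and brain, and 11 in kidney, at 632 bp from a liver position. Its normalised liver count was 1.11 times that of spleen, the next highest. By the fullest 501 bp in liver, the members closest to having a liver peak were the pair on chromosome 6, at 297 and 284 reads, and chr19:44482251-44483286, at 78. The last had 114 liver reads in all, 70 in spleen, 42 in lung, 35 in brain and 25 in kidney, lay 912 bp from a liver position, and after scaling was higher in spleen than in liver. Of the 57795 gaps between neighbouring listed liver positions, 1016 were under 500 bp and 12528 under 1000 bp. Beside a listed liver position, a region without one can thus hold many liver reads, and what part spacing in the peak list has in the class was not tested. Just outside the class, the regions with peaks in all 5 tissues and the fewest liver reads at a single liver position held 10 at chrX:45947366-45947981, 11 at chr12:80190286-80190956, and 11 at chr14:47461436-47462096. These counts lie below the median of 14 liver reads inside the class.

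Of the 1651, 30 held at least 50 reads in each of brain, kidney, lung and spleen, and liver was below every other tissue in all 30, at a median ratio to the lowest of 0.512. The 20 with the lowest ratio, at most 1 per 50 kb, had ratios with intervals below 1, and with scaling by total reads 19 did. Since the regions were chosen for lacking a liver peak and ranked by this ratio, nothing is read from that. They were long regions, since a read minimum favours length. The lowest ratio was at chr5:38922086-38924611, where liver held 23 reads, spleen 51, kidney 65, brain 70 and lung 74. Liver was 3.03 times below kidney there after scaling (1.85 to 5.10).

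At chr10:75108861-75111811, liver held 27 reads, spleen 52, lung 79, kidney 90 and brain 118. Its log2 ratio of liver to the lowest other tissue was -1.59 over the whole region but 0.20 within 250 bp of the midpoint. At chr5:123567376-123569536 it held 20, with 53 in kidney, 57 in spleen, 68 in lung and 89 in brain. The region chr15:80840841-80843181 held 22 liver reads, 56 in spleen, 57 in kidney, 73 in lung and 102 in brain. In each of these, liver was the lowest library in raw reads as well as after scaling, by 2.77 to 3.02 times after scaling, and kidney or lung was the next lowest.

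The other 4 tissues were less even in some of the 20. At chr8:108146191-108147731 spleen held 117 reads, its highest count in the whole class, against 33 in liver, 79 in kidney, 97 in brain and 114 in lung. At chr19:46953626-46956941 kidney held 188 and brain 184, with 135 in lung, 63 in spleen and 56 in liver. There liver was 1.96 times below spleen (1.35 to 2.86), but 1.27 times (0.870 to 1.85) with scaling by total reads, within counting error of even levels. The region chr8:15025931-15029041 held 161 reads in brain, 92 in lung, 71 in kidney, 61 in spleen and 41 in liver.

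**Figure D5:**
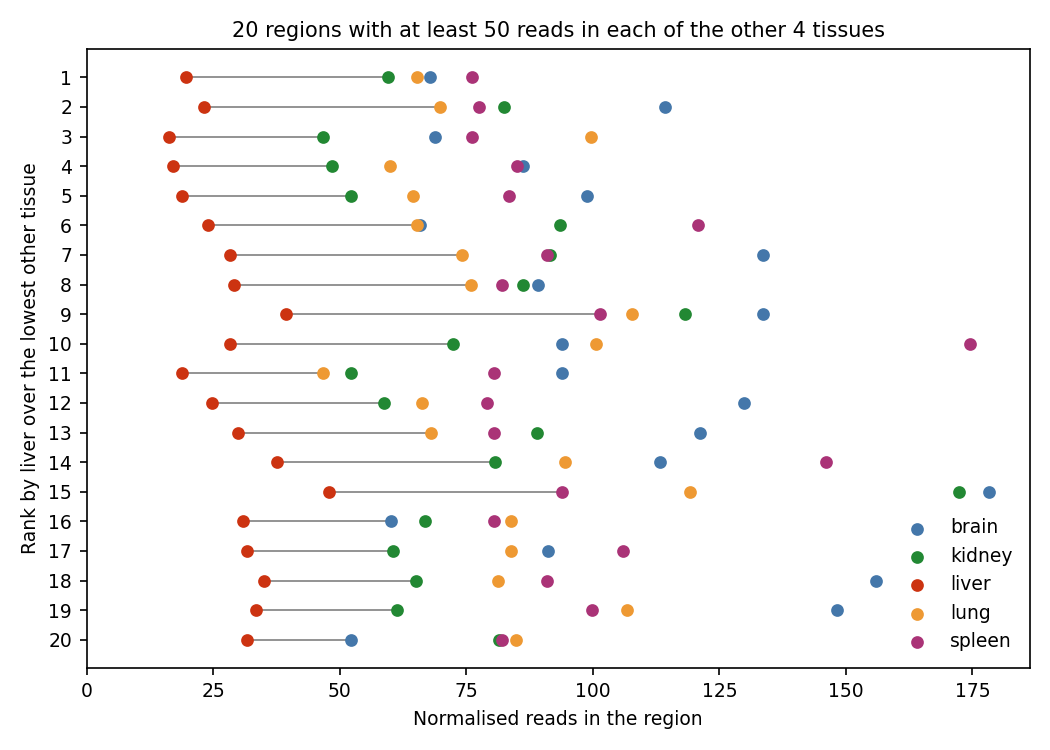
Normalised reads (horizontal axis) in each library for the 20 well covered regions with the lowest ratio of liver to the lowest other tissue, in rank order. Grey lines join liver to the lowest of the other 4, and in all 20 regions the liver point lies to the left of every other point.

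Among the well covered regions, 5 came nearest to even levels by the ratio of liver to the highest other tissue. At chr7:26017711-26021646 liver held 72 reads, spleen 67, lung 99, brain 101 and kidney 113, a ratio to the lowest tissue of 0.705 (0.513 to 0.965), but of 0.954 (0.674 to 1.35) with scaling by total reads. At chr11:121084416-121087516 liver held 61, lung 65, spleen 75, kidney 107 and brain 125, and the ratio of 0.910 (0.631 to 1.31) was within counting error of 1. So was the ratio of 0.838 (0.600 to 1.17) at chr9:107884116-107887621, where liver held 73 reads, brain 77, spleen 84, kidney 156 and lung 170. The other two lay at chr2:163447286-163450081, with 52 liver reads, 68 in spleen, 69 in brain, 76 in lung and 94 in kidney (log2 ratio to the lowest tissue -0.59, and 0.044 within 250 bp of the midpoint), and at chr8:86185956-86188906, with 59 liver reads, 55 in spleen, 106 in brain, 128 in kidney and 135 in lung. The ratio to the lowest tissue at the latter was 0.616 (0.419 to 0.906), and 0.952 (0.648 to 1.40) with scaling by total reads.

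The 19 regions at least 4-fold below the lowest other tissue held 2 to 13 liver reads. Those described here were chosen after their values were seen. At chr11:44430356-44430911, liver held 2 reads against 27 in lung, 35 in kidney, 48 in brain and 75 in spleen, a ratio to lung of 0.0719 (0.00828 to 0.286). At chr2:158591276-158592956, it held 5 against 29 in spleen, 44 in brain, 64 in lung and 71 in kidney. At chr11:94863166-94864916, it held 8 against 43 in spleen, 60 in kidney, 94 in lung and 103 in brain. These were 8.03 to 13.9 times below the lowest other tissue, and their intervals were wide: the first reached from 3.50 to 121.

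At some places several neighbouring regions had low liver reads, though a listed liver position lay within 10 kb of those described here as 4-fold low. Another region of the 19 lay at chr2:158588176-158589376, with 8 in liver, 30 in kidney, 30 in spleen, 38 in brain and 69 in lung, and 1 of the 20 well covered regions at chr2:158558241-158560996, with 28 liver reads against 68 to 102. On chromosome 3, 2 of the 19 lay from 88451616 to 88452996, with 8 liver reads against 32 to 92, and from 88454431 to 88455916, with 9 against 34 to 65. The nearest liver position lay 5420 and 8287 bp from their midpoints. On chromosome 2 it lay 1765 bp from the midpoint of chr2:158591276-158592956 and 5105 bp from that of chr2:158588176-158589376.

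Joined over gaps of up to 5 kb, which can themselves hold liver peaks, the 1651 regions formed 1427 places, of which 1258 held a single region. The place with the most regions, 7, spanned 18.5 kb of chromosome 19 from 4284316 to 4302781, with 165 liver reads, 238 in kidney and 278 in brain, and with 326 and 330 in spleen and lung. The place at chr3:88442996-88455916 held 6 regions and a deeper deficit, with 85 liver reads against 168 in spleen, 291 in kidney, 371 in lung and 398 in brain. A listed liver position lay inside its span, between its regions, 5420 bp from the midpoint of chr3:88451616-88452996. On chromosome 8, 2 places held 5 regions each. That from 108143941 to 108150431 had 75 liver reads against 209 to 271 elsewhere, and that from 125403831 to 125416176 had 121 against 213 to 287. The longest of 10 places with 4 regions, at chr7:52151071-52165626, had 84 liver reads, 109 in spleen, 183 in lung, 186 in kidney and 296 in brain. Regions of 1 place may share a gene and are not independent.

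The regions were spread unevenly over the chromosomes. For every 1000 merged regions, chromosome 19 had 17.2, chromosome 8 had 13.7 and chromosome 7 had 12.7, against 8.86 over all chromosomes. The fewest were 4.97 on chromosome 18 and 5.16 on chromosome 13, leaving out Y, which had none of its 74. Against regions with peaks in all 5 tissues, chromosomes 8, 19 and X stood highest, at 28.6, 27.0 and 25.1 per 100, and chromosome 9 lowest, at 12.0, with 19.1 overall. In 2 Mb windows the most regions were 21 at chr8:124000001-126000000 and 20 at chr19:4000001-6000000. The former held 619 merged regions of any class and the latter 577. The 23 windows with at least 10 held 320 of the regions (19.4%). The same windows held 11.1% of the regions with peaks in all 5 tissues and 5.999% of all merged regions. They were picked for their count of the class, so a higher share of it follows in part from the choice. The 57 regions on X had a median log2 liver ratio of -1.23 and the 1594 on autosomes -1.27.

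Among the 4 tissues with peaks, levels were more even by medians of ratios than by total reads. In the 757 regions with at least 20 reads in each, the highest exceeded the lowest by a median of 1.87 times by medians of ratios, and 447 (59.0%) stayed under 2-fold. With scaling by total reads the median was 2.23 and 297 (39.2%) stayed under 2-fold. The same shares over all merged regions were not computed. Which tissue led depended on the scaling: spleen was highest in 739 regions and brain in 352 by medians of ratios, but brain in 712, lung in 638 and spleen in 73 by total reads. Across regions, which are not replicates and share library depth and base composition, the Spearman correlation of read density per kb was highest for kidney and lung, 0.412, and lowest for liver and spleen, 0.189. Liver's correlation with the other tissues ran up to 0.299, with kidney. Brain and spleen, a pair without liver, stood at 0.239. Where all 5 tissues had a peak, every pair was higher, from 0.632 for kidney and spleen to 0.726 for kidney and liver.

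A few regions had a clear leader under both scalings. Those named are among the 3 per tissue with the largest lead at a minimum of 10 reads in each of the 4 tissues, chosen after the data were seen. At chr1:135970936-135971731, lung held 378 reads, against 17 in liver, 26 in spleen, 32 in brain and 36 in kidney, 8.60-fold over spleen (5.78 to 13.3), and 11.2-fold over the next highest with scaling by total reads. At chr6:58856641-58857286, brain held 116 reads, against 7 in liver, 14 in lung, 16 in spleen and 21 in kidney. That was 4.71-fold over spleen (2.78 to 8.51), and by total reads 7.40-fold over the next highest, then kidney. At chr13:51863551-51864541, kidney held 99, against 5 in liver and 18 to 21 elsewhere. Its lead was 3.04-fold over spleen (1.87 to 5.19), and by total reads 3.52-fold over the next highest, then brain. At chr13:83710951-83711656, spleen held 64, against 12 in liver and 16 to 29 elsewhere, 3.59-fold over kidney (2.28 to 5.78), but 2.29-fold by total reads. In these, a peak was listed in all 4 tissues although 1 library stood well above the rest.

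Classes with another tissue missing put the liver class in context. A peak everywhere but in spleen was found in 5421 regions, everywhere but in brain in 651, in lung in 314 and in kidney in 292. Spleen had the shortest list, 31594 positions, and liver the second shortest, 57816, so the order of class sizes partly repeats the order of list lengths, except for brain, which had the longest list, 91712. The median log2 ratio of the missing tissue to the mean of the others was -1.61 (-1.67 to -1.54) where brain was missing, -1.27 for liver, -1.17 for lung, -0.86 for kidney and -0.69 for spleen. With scaling by total reads these were -1.22, -1.34, -0.72, -0.92 and -1.52, so the order of liver, brain and spleen depended on the scaling. Without replicates these differences were not tested.

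The class without brain peaks had a deficit deeper or shallower than that of the liver class, depending on the scaling. At least 20 reads of the missing tissue were found in 82 of its 651 regions (12.6%), against 27.4% for liver. These shares are not alike, since the minimum is in raw reads. The brain library held 10292262 reads and that of liver 14964934, and the median region was 826 bp long against 931 bp. Of its 304 regions with at least 20 reads in each tissue with a peak, brain was at least 4-fold below the lowest in 32 (10.5%, with 0.526% over all regions so covered), but with scaling by total reads in 15 (4.93%, with 0.224%). The centre over flank density in brain was 1.41 (1.37 to 1.46) in that class, above the 1.26 of liver in its own, and the strand offset was 58.1 bp (45.8 to 70.5) against 38.8 bp. By the library's own mean, brain lay at a median of 2.82 times and liver at 2.57 times. Pooled over that class, liver was the highest of the 5, at 55.0 normalised reads per kb at the centre. In its median region by medians of ratios, spleen was highest, at 32.8 normalised reads against 26.5 in liver and 25.7 in kidney.

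Some regions without a liver peak lay close to a region led by liver. Of the 757 with at least 20 reads in each of the other tissues, 13 had a region within 10 kb that held a liver position, at least 20 liver reads and a normalised count 2-fold or more above every other tissue. These pairs were picked for that difference, after the data were seen, so a lower liver share at the region without a liver peak is close to fixed by the choice and is given as a description. The share of all merged regions so covered that have such a neighbour was not computed, so nothing is read from the 13. Of the 32 pairs, 20 came from 3 regions with high liver reads of their own, the pair on chromosome 6 and the region on chromosome 19 named above. In 8 of the 13, liver was below every other tissue at the region without a liver peak, against 718 of the 757 (94.8%). In 1 pair, chr11:77321641-77322216 had 14 liver reads, 20 in spleen, 50 in lung, 55 in kidney and 62 in brain, while chr11:77328321-77329016 had 89 in liver and 10 to 22 in the others. The first thus had 13.6% of the liver reads of the pair (7.63% to 21.8%) but 57.1% of the spleen reads (39.4% to 73.7%), the lowest share among the other tissues.

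In another pair, chr3:89254231-89255506 had 16 liver reads, 21 in brain, 22 in spleen, 37 in lung and 55 in kidney, and chr3:89262476-89262976 had 84 in liver and 3 to 13 in the others. At chr10:79777561-79779026 liver had 24 reads, spleen 32, kidney 36, lung 50 and brain 108, and at chr10:79786061-79786676 liver had 86 and the others 5 to 19. There the first region had 21.8% of the liver reads of its pair (14.5% to 30.7%) and 72.5% of the lung reads (60.4% to 82.5%), the lowest share of the others. Genes at these pairs were not analysed here.

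The share of repeated reads in liver lay within the range of the other libraries. This share, counting reads that start where another of the same strand starts, was 7.55% in liver, between 6.28% in kidney and 12.1% in spleen. Counting positions from stricter peak lists, with at least 20 reads within 250 bp, left 154 regions in the class.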

How the data were processed

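Per the labels' protocols, 10 min in 1% formaldehyde crosslinked the tissue, shearing took the chromatin to 0.2 to 0.8 kb, and 10 µg of antibody against polymerase II was used. The authors deposited aligned reads (chromosome, start, end, strand) and, as peaks, single positions without score, here treated as other values; Bowtie is named by the submitters' processing notes, with version, settings, build, peak caller and threshold not given in the sources used here. Lines of 34 to 36 bases were kept, which left out 4 to 15 per library, and reads were counted at their 5′ end. Libraries were scaled by the median over 8222 regions, each with 20 reads or more in all tissues, of the ratio to the geometric mean. The factors were 1.03 (brain), 1.09 (kidney), 1.17 (liver), 1.13 (lung) and 0.671 (spleen). Minus those from total reads they were, on the log2 scale, 0.33 in brain, 0.39 in lung, -0.66 in spleen, -0.01 in kidney and -0.03 in liver. Counts under 3 were set to 3 in ratios used for ranking and calling, but not in ratios with intervals. The last read on chromosome 7 lay at 152524509, past the last gene in the GRCm38 table, so that table and its promoter sequences were not used. The named regions are the 20 with the lowest ratio of liver to the lowest other tissue and the 5 with the highest ratio of liver to the highest, both among regions with at least 50 reads in each other tissue, and the 5 places with the most regions. The regions and rules were chosen with earlier results of these data known. The code that makes the call of low regions was run on simulated counts, which checks the code and not the called regions. The tools were Python 3.11.15 with NumPy 2.4.6 and SciPy 1.17.1, then pandas 2.3.3, and Matplotlib 3.10.9 for plots.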

Additional observations from a re-analysis of the deposited data

How the results depend on the processing

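The class kept its size within 1.5 times under windows of 100 and 500 bp (1310 and 1477 regions), without liver positions within 1 kb of the region (1373) and, an alternative chosen after seeing the data, with liver also counted where the fullest window reached the median listed liver position (1599). Positions with at least 20 reads left 154. The median log2 liver ratio of -1.27 was -1.34 with total reads, -1.23 with 1 read per position and strand, -1.35 within 250 bp of the midpoint and -1.37 with libraries thinned to the smallest. Chosen after seeing the data, it was -1.31 for regions with the 4 tissues' positions inside 500 bp and -1.37 with no liver position within 5 kb. The 19 of 757 regions with liver 4-fold below the lowest other tissue (0.315% over all regions so covered) became 231 at 2-fold (4.42%). At 10 reads they were 63 of 1617 (0.835%) and at 50 reads 0 of 30 (0.0917%). Within 250 bp of the midpoint they were 7 of 38 (0.361%), and without spleen 39 of 952 (1.11%). The percentages in brackets are the same call over all merged regions that met each read minimum. The 453 regions with 20 liver reads became 1281 at 10 reads and 14 at 50. The median distance to liver positions with at least 20 liver reads was 20000 bp, against 6760 bp for all. Of 44 named or 4-fold low regions, 3 moved beyond their counting interval with total reads. Within 250 bp of the midpoint 8 moved and 2 reversed, to log2 ratios of liver to the lowest other tissue of 0.20 at chr10:75108861-75111811 and 0.044 at chr2:163447286-163450081. The cause was not tested. Counts of 10 to 30 reads per region limit the precision of any single region. No paired analysis was possible because each tissue had 1 library.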
